A study of Homo sapiens and Mus musculus with 20 samples.

Results

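The genes described here encode heterochromatin proteins and histone methyltransferases. They are the 3 HP1 proteins CBX1, CBX3 and CBX5, the H3K9 methyltransferases SUV39H1, SUV39H2, SETDB1, EHMT1 and EHMT2, the corepressor TRIM28, and the H3K36 methyltransferase NSD2. They were taken by symbol. Of the 10 genes, 9 were listed in at least 1 of the IMR90 expression tables and 8 in all 3 experiments, among 17554 genes listed in any experiment and 11994 in all 3. EHMT2 was in none of the 3 tables, so its expression is not analysed here, and SUV39H2 was not in the pyruvate tables.

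Gene expression was measured by RNA sequencing in IMR90 cells, a wild-type human fetal lung fibroblast line that stops dividing after extended passage. The 12 libraries formed 3 experiments of 4 libraries, with 2 treated and 2 control libraries in each. A485, an inhibitor of the acyltransferase p300, was compared with Control2. MS-275, which blocks class I histone deacetylases, was compared with Control3, and pyruvate with Control6. The labels describe all controls as untreated and state no dose or duration. According to the study's text, pyruvate was given to cells that had already become senescent. The study links both inhibited enzyme classes and pyruvate to histone lactylation, so the comparisons ask what each perturbation does to the transcripts of these genes. No source states that replicates came from separate cultures, so p-values measure only the spread between libraries, which may be technical.

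In heterochromatin, methylation of H3K9 is written by enzymes of the SUV39, SETDB and EHMT families and read by HP1 proteins, which bind the mark through a chromodomain and recruit further methyltransferases. TRIM28 is brought to DNA by zinc finger proteins and in turn recruits SETDB1 and HP1. NSD2 methylates H3K36, a mark of active chromatin, and loss or redistribution of heterochromatin is a known feature of senescent fibroblasts.

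Values are read counts divided by 1 size factor per library, called normalised read counts here, and a log2 fold change is the treated mean minus the control mean of log2(value + 1). A gene is called changed at a Benjamini-Hochberg adjusted p under 0.05 in limma with an absolute log2 fold change above 1. Libraries held 24179065 to 46971227 reads, with 2.77% to 6.9% from mitochondrial genes. All 8 fibroblast markers were listed in every experiment. Of 5 epithelial markers only EPCAM was listed, with A485 and MS-275, and CDH1 was in no table. Of 5 endothelial markers 2, 3 and 2 were listed with A485, MS-275 and pyruvate, and PECAM1 and CDH5 were in no table. Of 6 immune markers 2, 1 and 0 were listed, with a summed level of at most 46.3 normalised read counts and PTPRC in no table. Scaling libraries to equal totals moved the median log2 fold change over the whole table to 0.40 for A485, to -0.15 for MS-275 and to 0.30 for pyruvate, against 0.0088, -0.0084 and -0.0069 as deposited. The share of calls that were higher then changed from 31.9% to 64.6% for A485 and from 57.3% to 71.7% for pyruvate. Quantile normalization moved that median to 0.12, -0.032 and -0.17. Control2 replicate 1 stood apart in proliferation transcripts, whose summed level over 10 markers was 50699 there against 16894 in Control2 replicate 2. In the MS-275 experiment, replicates 1 and 2 differed along transcript length, with a Spearman correlation of their log2 difference with length of -0.47 in controls and -0.45 in treated libraries across 15636 genes.

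The HP1 genes lie at chr17:48070052-48101478 on the minus strand (CBX1), chr7:26201162-26213607 on the plus strand (CBX3) and chr12:54230942-54280133 on the minus strand (CBX5) in hg38, and NSD2 at chr4:1871393-1982207 on the plus strand. These 4 genes were called higher together with pyruvate at the deposited scaling. With the dependence on transcript length and GC content taken out, CBX3 and NSD2 were not called and SUV39H1 was. For the 4 genes 150 bases of each promoter are shown, from 140 bases before to 10 after the RefSeq start in GRCh38.p14. Capitals mark E2F-like letters (TTTCCCGC, TTTCGCGC, TTTGCCGC or TTTGGCGC) and CCAAT boxes found on either strand.
CBX1, chr17:48101177-48101326, minus strand: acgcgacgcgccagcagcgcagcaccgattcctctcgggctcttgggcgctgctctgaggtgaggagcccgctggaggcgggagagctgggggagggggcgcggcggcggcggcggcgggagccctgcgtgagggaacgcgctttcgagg
CBX3, chr7:26201303-26201452, plus strand: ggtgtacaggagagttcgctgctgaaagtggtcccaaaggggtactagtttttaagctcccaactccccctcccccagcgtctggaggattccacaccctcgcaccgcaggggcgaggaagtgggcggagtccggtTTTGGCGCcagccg
CBX5, chr12:54280113-54280262, minus strand: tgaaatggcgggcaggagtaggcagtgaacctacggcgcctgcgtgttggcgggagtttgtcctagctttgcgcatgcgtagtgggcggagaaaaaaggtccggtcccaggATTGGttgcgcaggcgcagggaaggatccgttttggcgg
NSD2, chr4:1871253-1871402, plus strand: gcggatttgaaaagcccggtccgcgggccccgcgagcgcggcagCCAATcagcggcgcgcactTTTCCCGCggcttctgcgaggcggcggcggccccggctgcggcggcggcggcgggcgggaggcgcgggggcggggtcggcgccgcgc

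The full windows run from 250 bases before to 50 after a start, and a gene can have more than 1, so shares are of genes with the letters in any window. The E2F-like letters were present in CBX3 and NSD2 and in no other of the 9 genes with a window, against 3.99% of 27305 genes (3.31% of 35116 windows). CCAAT was present in CBX5, NSD2 and SUV39H1, against 39.7% of genes (34.6% of windows). The GC box letters GGGCGG were present in 7 of the 9 genes, against 48.3% of genes (45% of windows). The CHR letters TTTGAA were present in NSD2 and SUV39H2, against 18.2% of genes (15.2% of windows). CBX1 held none of these letters in its window. TRIM28 had no window, so the 9 genes with a window include EHMT2, whose expression was not analysed. A match describes letters only, and the motifs were chosen after expression values were known.

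Levels of different genes were set side by side per kb of the longest transcript. In Control2 the highest levels were those of TRIM28 (3170 ± 501 normalised reads per kb, SD, n = 2), CBX3 (3055 ± 129) and CBX1 (2176 ± 310). CBX5 (858 ± 212) and NSD2 (713 ± 375) followed, then EHMT1 (311 ± 20.9), SETDB1 (181 ± 17.9), SUV39H2 (127 ± 37.9) and SUV39H1 (120 ± 58.0). The ranges of TRIM28 and CBX3, of CBX5 and NSD2, and of SUV39H2 and SUV39H1 overlapped, while the other neighbours in this order did not. The corepressor and 2 of the HP1 genes were thus among the most abundant transcripts, above 93.5%, 95.6% and 95.7% of all listed genes for CBX1, CBX3 and TRIM28, whereas the 2 SUV39 genes lay near the middle.

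Control3 gave nearly the same order, with CBX3 (2624 ± 969 normalised reads per kb) and TRIM28 (2553 ± 104) at the top and SUV39H1 (73.3 ± 9.59) at the bottom. In Control6 the order differed. TRIM28 (2230 ± 18.8) and CBX1 (763 ± 63.3) came first, CBX3 (120 ± 23.5) came sixth of 8, and CBX5 (37.6 ± 3.90) was lowest, above 30.8% of listed genes. The 3 tables were normalized separately and the control cells were not stated to be alike, so levels across experiments were not tested. The levels were not adjusted for GC content, which fold changes in the pyruvate experiment followed, as described below. CBX3 (39.52%) and CBX5 (41.83%) had the lowest GC content of the 8 genes.

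**Figure D1:**
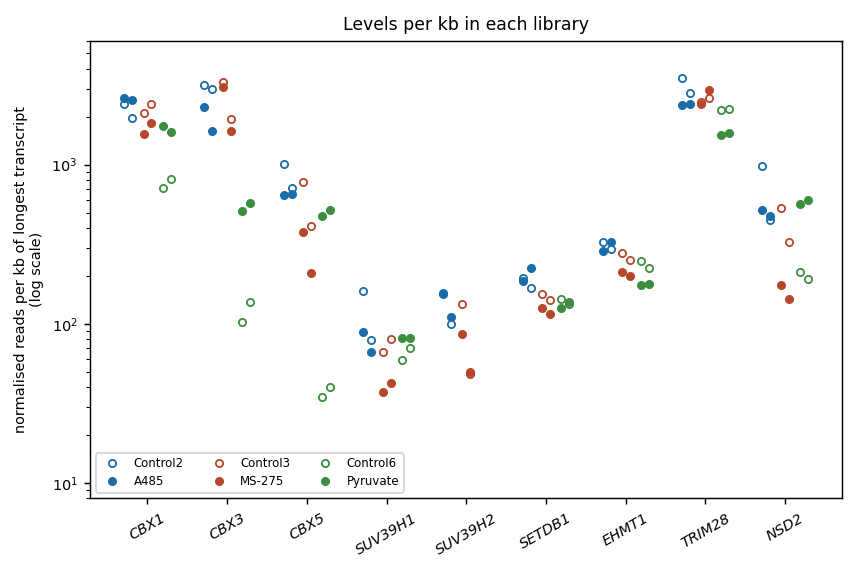
Normalised reads per kb of the longest transcript (log scale) for 9 genes in each of 12 libraries, with open circles for controls and filled circles for treated libraries, 1 circle per library. CBX3 and CBX5 lie between 34.8 and 136 in Control6 and between 472 and 571 with pyruvate, while TRIM28 lies between 1530 and 3525 in every library.

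Treatment with A485 gave no called change among the 9 listed genes. In the same limma fit 10.4% of 16084 genes were called, 3.31% higher and 7.06% lower, and 12.6% had an adjusted p under 0.05. No gene of the 9 had an adjusted p under 0.05, and only CBX3 had an unadjusted p under 0.05, as did 30.8% of all genes. edgeR and DESeq2 on the recovered reads also called none of the 9. Within replicate numbers, 4 of the 9 were lower in both, against 37.4% of all genes, and 2 were higher in both, against 38.1%. The 9 genes had a median log2 fold change of -0.37, against 0.0088 over all genes. That median was 0.047 without Control2 replicate 1, -0.059 with quantile normalization and 0.021 with equal library totals, where it was 0.40 over all genes.

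Among the HP1 genes, CBX3 had 6694 and 6307 normalised read counts in Control2 replicates 1 and 2 and 4881 and 3457 with A485. Both treated libraries lay below both controls (log2 fold change -0.66, SE 0.21, adjusted p = 0.0938), and the adjusted p ranged from 0.0202 to 0.436 over the alternatives. CBX5, the HP1 alpha gene, had 11637 and 8172 in controls and 7474 and 7590 in treated libraries. Its treated libraries also lay below both controls, by -0.37 (SE 0.21, adjusted p = 0.293), which became 0.021 with equal library totals and -0.12 without Control2 replicate 1. CBX1, the HP1 beta gene, had 5802 and 4739 in controls and 6387 and 6201 with A485. It was the one gene of the 9 whose treated libraries both lay above the controls (0.26, SE 0.17, adjusted p = 0.361), as did those of 30.4% of all genes.

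TRIM28 (chr19:58544064-58550722, plus strand) had 11857 and 9473 normalised read counts in Control2 and 7985 and 8131 with A485. Its treated libraries lay below both controls (log2 fold change -0.40, SE 0.18, adjusted p = 0.205), so that 3 of the 9 genes were below without overlap, against 30.7% of all genes. SETDB1 (chr1:150926263-150964744, plus strand), the methyltransferase that TRIM28 recruits, had 861 and 749 in controls and 828 and 990 in treated libraries. These overlapped, as did EHMT1 (chr9:137618992-137870016, plus strand), the GLP methyltransferase, with 2553 and 2322 in controls and 2261 and 2545 with A485. The EHMT1 log2 fold change of -0.022 (SE 0.17, adjusted p = 0.945) changed sign under 5 alternatives and when Control2 replicate 1 or A485 replicate 1 was left out.

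SUV39H1 (chrX:48695554-48709016, plus strand), which trimethylates H3K9 at pericentric repeats, had 479 and 235 normalised read counts in Control2 and 263 and 198 with A485 (log2 fold change -0.56, SE 0.41, adjusted p = 0.415). Its paralog SUV39H2 (chr10:14878820-14904315, plus strand) had 474 and 308 in controls and 480 and 343 in treated libraries (0.084, SE 0.33, adjusted p = 0.888). Groups overlapped for both, and without Control2 replicate 1 the SUV39H1 value was -0.043. NSD2 had 8385 and 3836 in controls and 4427 and 4097 with A485, so Control2 replicate 1 alone was high. The NSD2 log2 fold change was -0.41 (SE 0.36, adjusted p = 0.485), and without Control2 replicate 1 it was 0.15.

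Proliferation markers were also read in these libraries. MKI67, the Ki-67 antigen, had 8396 and 2553 normalised read counts in Control2 and 1639 and 1919 with A485. TOP2A, the mitotic topoisomerase, had 9379 and 3459 in controls and 2880 and 2326 with A485. None of the 10 markers was called in limma (median log2 fold change -0.85) or edgeR, DESeq2 called 3 lower, and none was at 0 in any library. Without Control2 replicate 2 limma called 5 lower (median -1.64), and without Control2 replicate 1 none (median -0.030). Their summed level was 16894 to 50699 in controls and 13882 to 19949 with A485. Of the fibroblast markers 7 of 8 were called lower, with a summed level of 1357450 to 1511440 in controls and 428267 to 502039 with A485. EPCAM was called higher (47.7 to 64.2 in controls and 177 to 208 with A485). The 2 endothelial markers, TEK and VWF, were called lower, with a summed level of 508 to 1277 in controls and 118 to 189 with A485, where VWF was at 0. The part of any of these in the heterochromatin values was not tested. In bulk libraries, fewer cells of a kind and less RNA per cell cannot be told apart.

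Other genes of the pathway gave 1 call with A485. It was MECOM, a zinc finger protein assigned to the H3K9 writers and cofactors, which had 649 and 820 normalised read counts in controls and 303 and 341 with A485 (log2 fold change -1.18, SE 0.25, adjusted p = 0.0337). This list had no gene called lower without the variance trend, when any 1 of the 4 libraries was left out, or with equal library totals, where 1 gene was called higher instead. In limma the other 6 tested H3K9 writers and cofactors were not called, and neither was any of 11 H3K9 demethylases, 4 HUSH genes, 15 HP1 partners and assembly factors, 6 H3K36 methyltransferases, 4 H3K36 demethylases and 3 H4K20 methyltransferases. DESeq2 on the recovered reads called 1 more of the writers and cofactors higher, 1 HP1 partner lower and 1 H4K20 methyltransferase higher, while edgeR called only 1 writer, lower. List medians lay between 0.013 and 0.46. The smallest p-values in those lists belonged to PHF2 (log2 fold change 0.54, adjusted p = 0.0919) and JMJD1C (0.65, 0.13), TASOR (0.42, 0.174) and MORC2 (-0.46, 0.211), and UHRF1 (-1.34, 0.117) and POGZ (0.38, 0.215). In the methylation lists they belonged to SETMAR (-0.50, 0.243) and NSD3 (0.22, 0.424), KDM8 (0.98, 0.144) and KDM2B (-0.18, 0.53), and KMT5C (1.19, 0.0677) and KMT5B (0.46, 0.141). None of these passed the test in limma.

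**Figure D2:**
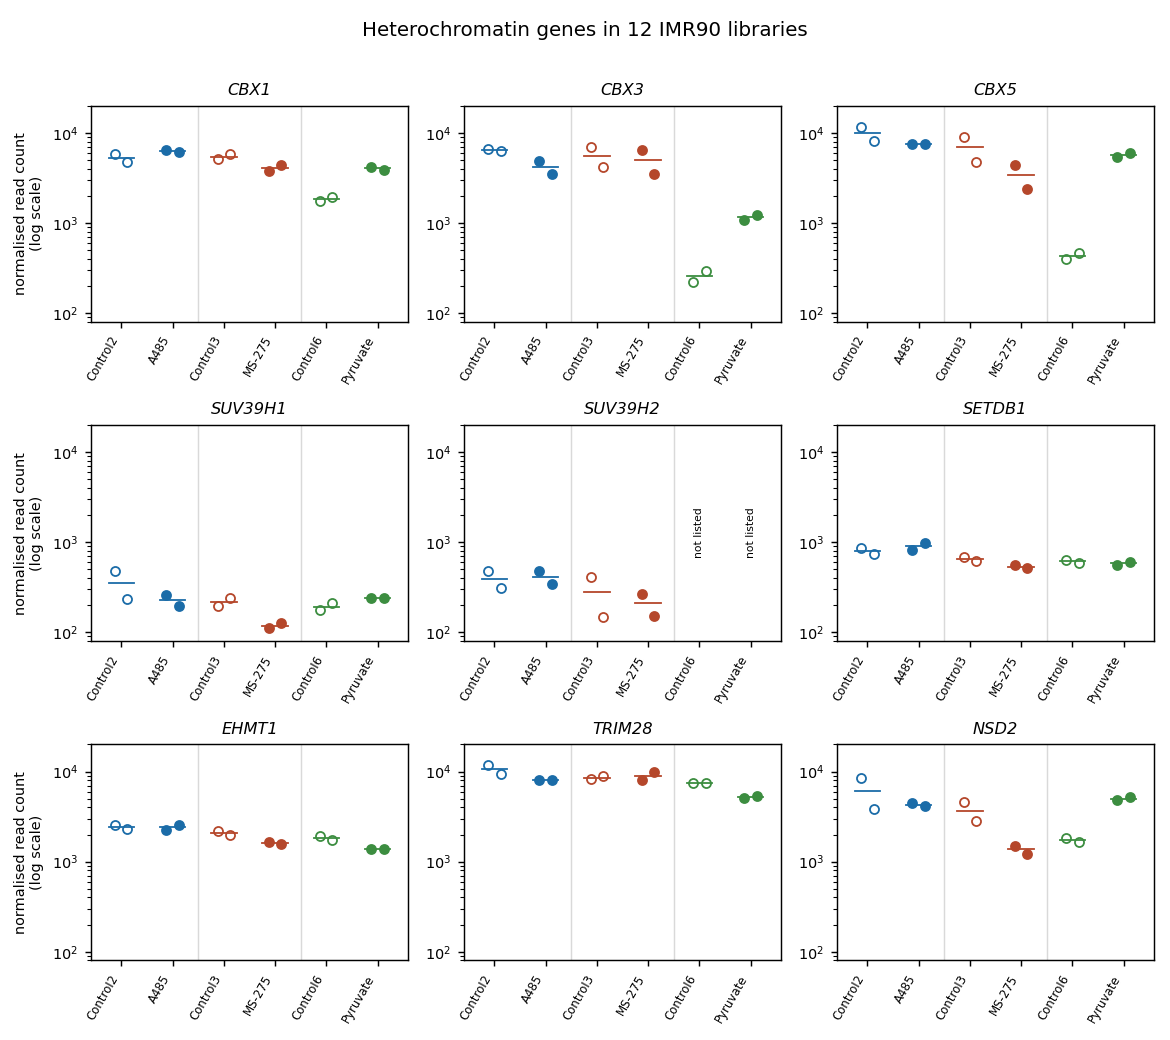
Normalised read counts (log scale) of 9 heterochromatin genes in 12 IMR90 libraries, with 1 circle per library, open for controls and filled for treated libraries, and a line at the group mean. CBX5 is 402 and 465 in Control6 and 5453 and 6000 with pyruvate, and NSD2 with MS-275 is below both Control3 libraries.

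With MS-275 no gene was called among the 9 or among all 15883 genes tested, which is 0%. In limma 1 of the 9, NSD2, and 10.9% of all genes had an unadjusted p under 0.05, and no count model was run for this experiment. Treated and control libraries were therefore also set side by side within each replicate number. The labels do not state that equal numbers mark shared cultures. A limma fit with replicate number as a block, which takes them as paired, called 2183 of 15883 genes, 1230 higher and 953 lower. Among the 9 it called CBX5 and NSD2 lower. Within both numbers 7 of the 9 genes were lower with MS-275, against 40.4% of all genes, and none was higher, against 38.6%. In 6 of the 9 both treated libraries lay below both controls, against 19.3% of all genes, and in 0 of the 9 above both, against 19.5%. The median log2 fold change was -0.37 for the 9 genes and -0.0084 for all genes.

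NSD2 gave the largest difference of the 9, with 4575 and 2802 normalised read counts in Control3 and 1511 and 1222 with MS-275. Its log2 fold change was -1.40 (SE 0.38, unadjusted p = 0.0157 and adjusted p = 0.318 in limma), or 0.38 times the control level (95% interval 0.19 to 0.757). It was -1.60 within replicate 1 and -1.20 within replicate 2. CBX5 had 9030 and 4768 in controls and 4351 and 2400 with MS-275. Its differences within numbers, -1.05 and -0.99, were close to each other, while the 2 controls alone differed by nearly as much, and the log2 fold change was -1.02 (SE 0.50, adjusted p = 0.587).

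SUV39H1 had 198 and 239 normalised read counts in Control3 and 110 and 126 with MS-275 (log2 fold change -0.88, SE 0.37, adjusted p = 0.502). Its groups did not overlap, and it was lower by -0.84 and -0.92 within replicates 1 and 2. CBX1 had 5080 and 5816 in controls and 3770 and 4396 in treated libraries, with differences of -0.43 and -0.40 within numbers. EHMT1 had 2194 and 1967 in controls and 1660 and 1565 with MS-275, with differences of -0.40 and -0.33. SETDB1 had 684 and 622 against 555 and 513, with differences of -0.30 and -0.28. The treated libraries of CBX1, EHMT1 and SETDB1 lay below both controls, and their adjusted p-values were 0.742 to 0.874.

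CBX3 differed more between replicate numbers than between treatment and control, with 7041 and 4126 normalised read counts in controls and 6517 and 3461 with MS-275 (log2 fold change -0.18, SE 0.48, adjusted p = 0.978). The same held for SUV39H2, with 409 and 150 in controls and 266 and 153 in treated libraries (-0.29, SE 0.63, adjusted p = 0.969). TRIM28 had 8341 and 8838 in controls and 8101 and 9959 with MS-275. Its log2 fold change of 0.065 (SE 0.30, adjusted p = 0.99) was -0.078 with equal library totals and -0.029 with quantile normalization. The 95% interval of the TRIM28 log2 fold change ran from -0.71 to 0.84, and differences within it were not detectable here.

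**Figure D3:**
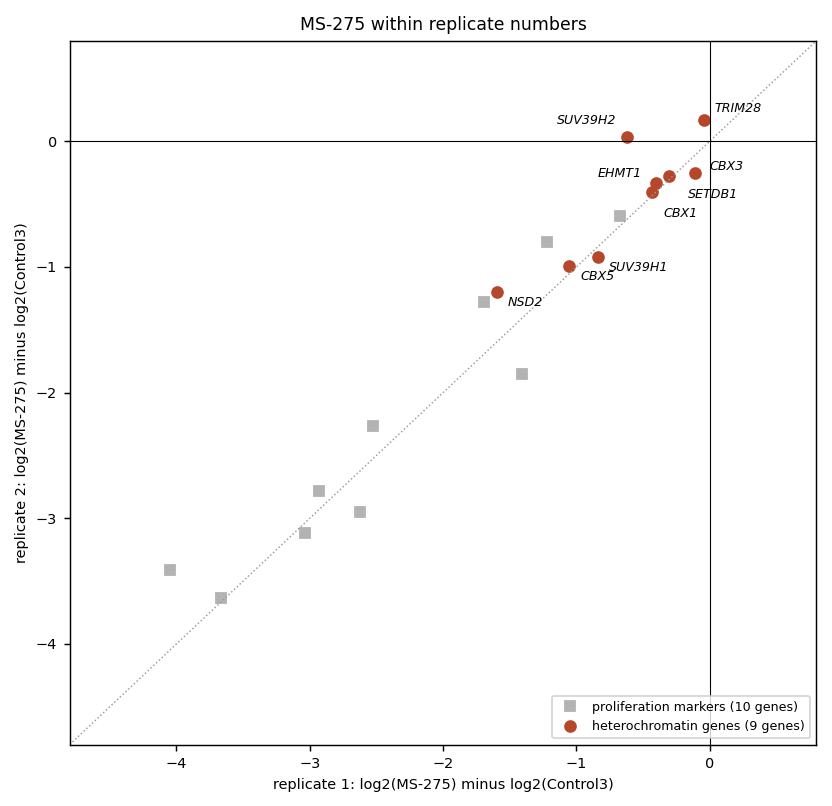
Log2 difference between MS-275 and Control3 within replicate 1 (horizontal axis) and replicate 2 (vertical axis) for 9 heterochromatin genes (circles) and 10 proliferation markers (squares), with a dotted line where both are equal. NSD2 (-1.60 and -1.20), CBX5 (-1.05 and -0.99) and SUV39H1 (-0.84 and -0.92) lie farthest from 0 among the heterochromatin genes, and all 10 markers are below 0 on both axes.

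Proliferation markers were lower within both numbers in 10 of 10 genes (median log2 fold change -2.59). MKI67 had 4235 and 380 normalised read counts in Control3 and 256 and 34.9 with MS-275, and TOP2A had 5780 and 912 in controls and 756 and 132 in treated libraries. Ribonucleotide reductase subunit RRM2 (log2 fold change -3.65, adjusted p = 0.142) and the mitotic kinase CDK1 (-3.08, 0.162) had the smallest p-values. None of the 10 was called in the main fit. With replicate number as a block 9 were called lower, against 953 of 15883 genes. None was at 0, and their summed level was 14703 to 23091 in controls and 4916 to 5256 with MS-275. The fibroblast markers had summed levels of 769700 to 1255590 and of 632088 to 1119840, and the 3 listed endothelial markers of 784 to 1397 and of 576 to 664, with none called. The part of these markers in the values of the heterochromatin genes was not tested.

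The other lists gave no call with MS-275, and their medians lay between -0.16 for the HUSH complex and -0.62 for the H4K20 methyltransferases. Lower within both numbers were 7 of 7 H3K9 writers and cofactors, 6 of 11 H3K9 demethylases, 3 of 4 HUSH genes, 12 of 15 HP1 partners and assembly factors, 6 of 6 H3K36 methyltransferases, 3 of 4 H3K36 demethylases and 2 of 3 H4K20 methyltransferases, against 40.4% of all genes. Higher within both were 2 H3K9 demethylases and 2 HP1 partners. Without Control3 replicate 1 the medians turned to 0.26 for the H3K9 writers, 0.14 for HUSH, 0.033 for the HP1 partners and 0.43 for the H3K36 methyltransferases. Without MS-275 replicate 2 they turned to 0.27 for the H3K9 writers, 0.052 for the H3K9 demethylases, 0.18 for HUSH and 0.35 for the H3K36 methyltransferases. Each such fit sets a single library against both replicate numbers of the other arm. Differences between the numbers therefore enter these medians, unlike the comparisons within numbers. The smallest p-values were those of the H3K9 demethylases KDM4A (log2 fold change -1.02, adjusted p = 0.372) and PHF2 (-0.75, 0.49), of UHRF1 (-1.72, 0.239) and CHAF1A (-0.91, 0.439) among the HP1 partners and assembly factors, and of KMT5B (-1.43, 0.397) and KMT5A (-0.62, 0.597), which methylate H4K20. Those of the remaining lists were MECOM (-0.84, 0.764) and WIZ (-0.40, 0.888), TASOR (-0.57, 0.951) and MPHOSPH8 (-0.22, 0.961), SETMAR (-0.74, 0.562) and SMYD2 (-0.69, 0.661), and KDM2B (-1.08, 0.364) and RIOX1 (-0.50, 0.743). UHRF1, which recognises H3K9 methylation at replicating DNA, had 1894 and 1404 normalised read counts in controls and 517 and 473 with MS-275.

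Pyruvate gave called changes in 4 of the 8 listed genes. CBX1, CBX3, CBX5 and NSD2 rose and none was called lower. In this experiment 31.0% of 12013 genes were called higher and 23.1% lower, or 54.1% either way, and 80.9% had an adjusted p under 0.05, as had 6 of the 8 genes. The same 6 had an unadjusted p under 0.05, against 81.8% of all genes. Treated libraries lay above both controls in 5 of the 8 and below both in 2, against 45.2% and 45.3% of all genes. Those 5 were higher and those 2 lower within both replicate numbers as well, against 46.3% and 46.7%. The median log2 fold change was 0.73 for the 8 genes and -0.0069 for all genes.

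CBX5 showed the largest rise of the 8, from 402 and 465 normalised read counts in Control6 to 5453 and 6000 with pyruvate (434 ± 45.1 against 5727 ± 387, SD, n = 2). The log2 fold change was 3.72 (SE 0.097, adjusted p = 1.21e-10 in limma), a 13.2-fold rise (95% interval 11.4 to 15.3). CBX3, the HP1 gamma gene, had 219 and 290 in controls and 1091 and 1216 with pyruvate. It rose 4.56-fold (95% interval 3.62 to 5.74, log2 fold change 2.19, SE 0.15, adjusted p = 1.04e-07). CBX1 had 1738 and 1955 in controls and 4221 and 3889 with pyruvate, a 2.2-fold rise (1.94 to 2.49, log2 fold change 1.14, SE 0.082, adjusted p = 1.54e-07). Treated and control libraries did not overlap for any of the 3 HP1 genes. At the deposited scaling the intervals of their fold changes did not overlap each other, but these intervals hold only the spread between libraries. With the dependence on transcript length and GC content taken out, as described below, the order changed. CBX3, at a log2 fold change of 0.75, then lay below CBX1, and CBX5 was at 2.01.

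NSD2 had 1821 and 1646 normalised read counts in Control6 and 4864 and 5168 with pyruvate. It rose 2.89-fold (95% interval 2.57 to 3.26, log2 fold change 1.53, SE 0.077, adjusted p = 8.2e-09). All 4 calls were kept when any single library was left out and with either other scaling. Reads of CBX1, CBX3 and CBX5 are uncertain in part because 5, 10 and 1 annotated pseudogenes carry their names, and 368 exonic bases of CBX3 overlap HNRNPA2B1 on the opposite strand, with the strand setting of counting not stated.

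None of the 3 listed H3K9 methyltransferases was called with the deposited scaling, and neither was TRIM28. SETDB1 had 638 and 592 normalised read counts in Control6 and 561 and 611 with pyruvate (log2 fold change -0.070, SE 0.12, adjusted p = 0.598, 95% interval -0.33 to 0.19). SUV39H1 had 177 and 209 in controls and 241 and 242 in treated libraries (0.33, SE 0.19, adjusted p = 0.128), and -0.33 was its log2 fold change under quantile normalization. EHMT1 had 1934 and 1746 in controls and 1365 and 1387 with pyruvate (-0.42, SE 0.086, adjusted p = 0.000884). TRIM28 had 7457 and 7546 in controls and 5147 and 5323 with pyruvate (-0.52, SE 0.059, adjusted p = 7.20e-06). EHMT1 and TRIM28 passed the p threshold but not the fold minimum, and their groups did not overlap. SETDB1 shares 948 exonic bases with CERS2 on the opposite strand.

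Fold changes in the pyruvate experiment followed the base composition of transcripts, with a Spearman correlation of -0.70 between log2 fold change and GC content across 11888 genes, against -0.11 with A485 and -0.016 with MS-275. The genes described here span this range, from 39.52% GC for CBX3 and 41.83% for CBX5, through 45.55% for NSD2 and 47.61% for CBX1, to 57.56% for SUV39H1 and 64.24% for TRIM28. With the dependence on transcript length and GC content taken out, CBX5 (log2 fold change 2.01) and CBX1 (1.19) were still called. CBX3 (0.75) and NSD2 (0.67) no longer passed the fold minimum, SUV39H1 was called higher (1.30, adjusted p = 7.57e-05), and EHMT1 was at -0.081 (adjusted p = 0.334). TRIM28 turned from -0.52 to 0.63 (adjusted p = 4.37e-07) and SETDB1 from -0.070 to 0.22 (adjusted p = 0.0998). The called set thus went from 4 of 8 to 3 of 8 genes, with CBX1 and CBX5 in both, and the calls over all genes from 6503 to 3643.

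**Figure D4:**
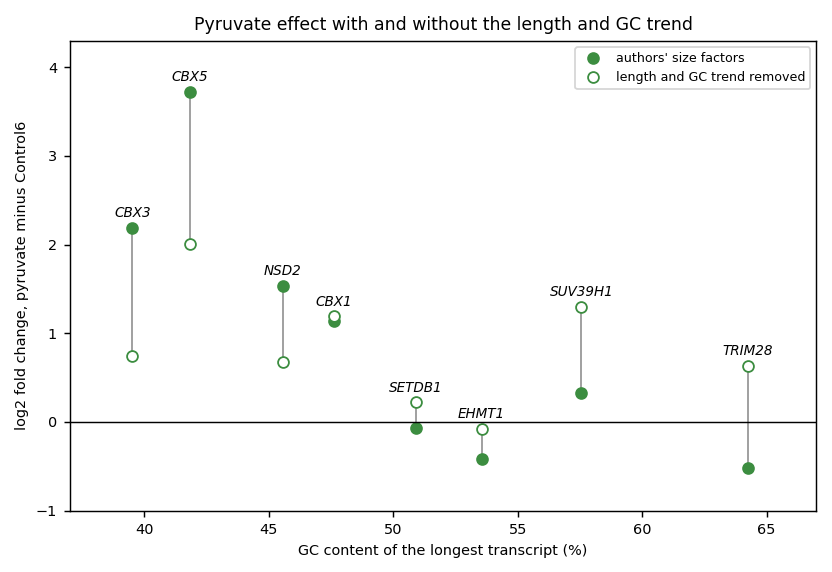
Log2 fold change with pyruvate against the GC content of the longest transcript (%) for 8 genes, with filled circles for the deposited scaling and open circles with the dependence on length and GC content taken out, joined by a line per gene. CBX5 goes from 3.72 to 2.01 and CBX3 from 2.19 to 0.75, CBX1 is at 1.14 and 1.19, and TRIM28 crosses 0.

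Proliferation markers were called higher with pyruvate in 7 of 10 genes and lower in none (median log2 fold change 2.39), against 31.0% and 23.1% of all genes. E2F1 had 751 and 712 normalised read counts in Control6 and 519 and 448 with pyruvate. Its log2 fold change of -0.60 (adjusted p = 0.000871 in limma) passed the p threshold but not the fold minimum. MKI67 had 161 and 71.6 normalised read counts in Control6 and 2995 and 2999 with pyruvate, and TOP2A had 21.6 and 29.3 in controls and 1060 and 1076 in treated libraries. RRM2 (log2 fold change 2.31, adjusted p = 4.32e-10) and the replication clamp PCNA (2.46, 1.44e-09) had the smallest p-values of the list. The summed level was 4350 to 4743 in controls and 19439 to 19899 with pyruvate, and no marker was at 0. The fibroblast markers had 2 of 8 called higher and 1 lower, with summed levels of 880751 to 896665 and of 775087 to 778292. TEK rose (254 to 317 in controls and 1402 to 1435 with pyruvate) and VWF fell (104 to 164 and 33.4 to 46.2), with a summed endothelial level of 358 to 481 in controls and 1448 to 1469 with pyruvate. The part of these markers in the rise of the HP1 genes and NSD2 was not tested.

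The other lists also held calls with pyruvate, with 31.0% of all genes called higher and 23.1% lower as the background. Among H3K36 methyltransferases, the family of NSD2, 5 of 6 rose and none fell, led by SETD2, the main writer of H3K36 trimethylation (log2 fold change 3.15, adjusted p = 3.79e-09), and NSD1 (3.33, 5.57e-09). Among H3K9 writers and cofactors 5 of 6 rose and 1 fell. ATF7IP, the partner that stabilises SETDB1, had 130 and 132 normalised read counts in controls and 853 and 871 with pyruvate (2.71, 1.44e-08), and PRDM2 rose as well (1.85, 1.62e-07). WIZ, a cofactor of the EHMT enzymes, fell (-1.56, 7.33e-09).

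Of 15 HP1 partners and assembly factors 8 rose and 1 fell. ADNP, which forms a complex with HP1, had 418 and 379 normalised read counts in Control6 and 3002 and 3104 with pyruvate (log2 fold change 2.94, adjusted p = 4.47e-10), and HP1BP3 had 3132 and 2952 in controls and 7522 and 7541 with pyruvate (1.31, 6.34e-09). The fall was in DAXX, a histone H3.3 chaperone with 38.3 and 58.6 in controls and 23.6 and 5.54 with pyruvate (-1.93, 0.0222). It was not called without the variance trend, without Control6 replicate 2 or without Pyruvate replicate 2, and it was not tested at a mean of at least 50. In the HUSH complex, which silences repeats through H3K9 methylation, 3 of 4 genes rose, among them PPHLN1 (1.56, 2.03e-07) and MPHOSPH8 (2.37, 5.30e-07).

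Of 9 tested H3K9 demethylases 2 rose, KDM3A (log2 fold change 3.16, adjusted p = 1.44e-08) and JMJD1C (2.43, 2.29e-06), and 1 fell, KDM4B (-1.35, 9.87e-09). Of 4 H3K36 demethylases none rose and RIOX1 fell (-1.15, 0.000111). Of 3 H4K20 methyltransferases KMT5B rose (2.24, 6.83e-07) and KMT5C fell (-1.93, 0.000161). With that dependence taken out the counts called higher and lower became 4 and 0 of 6 H3K9 writers, 1 and 0 of 9 H3K9 demethylases, 1 and 0 of 4 HUSH genes, and 8 and 1 of 15 HP1 partners. They became 3 and 0 of 6 H3K36 methyltransferases, 0 and 0 for the H3K36 demethylases and the H4K20 methyltransferases, and 8 and 0 of 10 proliferation markers. In that fit 1867 of all 11888 genes were called higher and 1776 lower.

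Whether the treatments differed in their effect on a gene was tested as the difference of the log2 fold changes, each taken within its own experiment. The fit gave each gene 1 spread shared by both experiments. The experiments differed in spread, with an SE for CBX1 of 0.30 with MS-275, 0.082 with pyruvate and 0.24 for their difference. The p-values of differences can therefore be too small where 1 experiment varies more. The effect of pyruvate exceeded that of MS-275 in 5 of 8 genes at an adjusted p under 0.05 in limma, against a difference in either direction in 41.1% of 12005 genes. These were CBX5 (difference 4.74, SE 0.54, adjusted p = 0.00133), NSD2 (2.93, SE 0.37, 0.00183), CBX3 (2.37, SE 0.53, 0.0139), CBX1 (1.55, SE 0.24, 0.0037) and SUV39H1 (1.20, SE 0.36, 0.0359). The SUV39H1 difference did not pass when any of the 8 libraries was left out (adjusted p 0.0531 to 0.121). That of CBX3 did not pass without Control6 replicate 1 (0.0605) or without Pyruvate replicate 2 (0.0578), which left 3 genes in each case, and its adjusted p was 0.114 with the dependence on length and GC taken out. TRIM28 had a difference of -0.58 (SE 0.23, adjusted p = 0.0819), which was 0.60 with that dependence taken out (0.0359). The TRIM28 difference was -0.135 with quantile normalization (0.647) and -0.131 with equal library totals (0.658). For SUV39H1 the difference was 0.53 with quantile normalization (0.336) and 1.66 with equal library totals (0.0112).

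Between pyruvate and A485, 4 of 8 genes differed, against 65.4% of 11993 genes. They were CBX5 (difference 4.10, SE 0.24, adjusted p = 6.87e-06), CBX3 (2.85, SE 0.28, 5.57e-05), NSD2 (1.95, SE 0.42, 0.00379) and CBX1 (0.87, SE 0.19, 0.00354). With that dependence taken out NSD2 no longer passed (0.79, adjusted p = 0.171), and SUV39H1 (1.72, 0.017) and TRIM28 (0.92, 0.0064) did. EHMT1 passed without Control2 replicate 1 (0.0487) or A485 replicate 1 (0.0492), and SUV39H1 without Control2 replicate 2 (0.00971). Between A485 and MS-275 none of 9 genes differed in limma, against 3.81% of 15130 genes. None of the 9 had an unadjusted p under 0.05, against 17.6% of all genes. The nearest was CBX1 (0.68, SE 0.34, adjusted p = 0.36), with log2 fold changes of 0.26 and -0.42. NSD2 had the largest difference of the 9 (0.98, SE 0.59, adjusted p = 0.452).

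**Figure D5:**
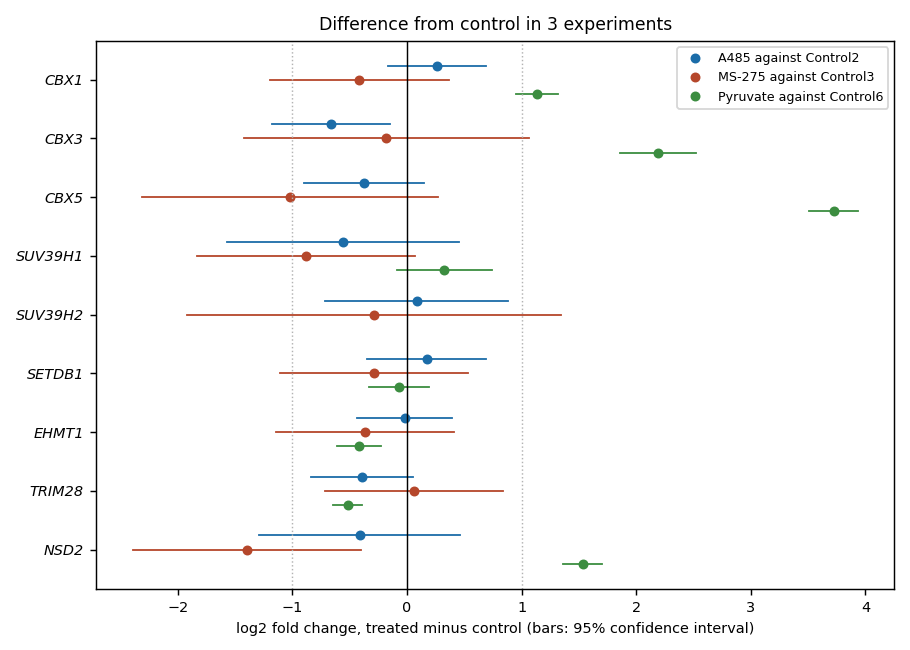
Log2 fold change of 9 genes (points) with 95% confidence intervals (bars) for A485, MS-275 and pyruvate, each against its own control, with dotted lines at -1 and 1. The pyruvate points of CBX1, CBX3, CBX5 and NSD2 lie beyond 1 at 1.14, 2.19, 3.72 and 1.53, and the MS-275 point of NSD2 lies at -1.40 with an interval from -2.39 to -0.40.

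Across the 12 libraries, with log2 values centred within each experiment, CBX3 and CBX5 had a Pearson r of 0.94, CBX1 and CBX5 of 0.87, and CBX5 and NSD2 of 0.86. Over the 8 libraries of the A485 and MS-275 experiments alone, these were 0.72, 0.26 and 0.92, so the r of CBX1 and CBX5 was low without the pyruvate libraries. For CBX1 and CBX3 the r was 0.71 over the 12 libraries and -0.38 over those 8. CBX1 and TRIM28 had an r of -0.68 over the 12 libraries and of -0.15 over those 8. Outside the 10 genes, those most like CBX5 were LIMA1, POGLUT3 and HNRNPU (r 0.995 to 0.996), those most like CBX3 were NAA50, KLF3 and NFXL1 (0.98 to 0.986), and those most like CBX1 were ARL6IP1, ZNF830 and RBBP4 (0.977 to 0.985), among 11989 genes. LIMA1, an actin-binding protein, had log2 fold changes of -0.53, -1.02 and 3.46 with A485, MS-275 and pyruvate, beside -0.37, -1.02 and 3.72 for CBX5. The points share libraries and treatments, and the pyruvate difference is the largest of the 3, so these correlations are descriptions.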

How the data were processed

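RNA from IMR90 cells was sequenced as paired reads. Per the submitters' processing notes, the authors used Trim Galore 0.6.10, HISAT2 2.2.1, SAMtools 1.7, featureCounts 2.0.6 and DESeq2 1.34.0 with hg38. The annotation and strand setting are not given in the sources used here. The deposited values are a signal, that is, each gene's count over its library's size factor. Libraries were grouped by title. Genes averaging 10 or more across the 4 libraries were tested with limma 3.58.1 (eBayes with trend, R 4.3.3) on log2(value + 1), a scale that understates changes of low genes, with Benjamini-Hochberg adjustment over all genes. In all 12 libraries 100% of values were within 0.01 of a whole number of reads, from which the read totals were taken. Recovered reads of the A485 experiment were also tested with edgeR 4.0.16 (542 genes called higher and 1122 lower) and DESeq2 1.42.0 (782 and 1543). No count model was run for the other experiments. Their values also fitted whole reads, but a separate test did not recover the value of 1 read in 5 of their 8 libraries. Transcript length and GC content came from GENCODE 44 (98.4% to 99% of genes matched), and promoters from RefSeq. The tests were tried on simulated data. The members and gene lists were chosen with earlier results of these data known. Text names the 10 genes, MKI67, TOP2A, up to 2 called genes per list and direction (or the 2 smallest p-values), and the 3 genes most like each HP1 gene. Replicates differed by more than sampling noise (chi-square per gene 4.54 to 456). Muscle libraries were not used here.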

Additional observations from a re-analysis of the deposited data

How the results depend on the processing

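With 2 libraries per group, an absence of calls does not show equal levels, and leaving out 1 library leaves an arm with 1 sample that is assumed to vary like the others. In the pyruvate experiment the 4 calls were the same genes under all alternatives except removal of the length and GC trend and the absence of a fold minimum, which added EHMT1 and TRIM28 as lower (6 members). Without 1 library, all-gene calls ranged from 117 to 844 for A485 and from 0 to 419 for MS-275. For A485 they were 2584 with equal library totals and 840 without the variance trend, against 1667. For pyruvate they were 3643 with the length and GC trend removed and 3649 with that and the replicate block. Replicate numbers were not established as pairing: same-numbered deviations correlated at 0.32, 0.73 and 0.0020 for A485, MS-275 and pyruvate. With the replicate block, MS-275 gave 2 called members, CBX5 (adjusted p = 1.01e-06) and NSD2 (1.80e-07), and 2183 genes in all, and with block and trend removal 2 and 2095. It also called 9 of 10 proliferation markers and 3 of 15 HP1 partners and assembly factors lower, against 953 of 15883 genes. The block changed no member call with A485 or pyruvate. It gave TRIM28 a difference between pyruvate and MS-275 that passed (-0.58, adjusted p = 0.00119). With A485 it called 2 of 10 proliferation markers lower, against 1616 of 16084 genes. Members that differed between A485 and MS-275 became 1 with the block and 4 with block and trend removal, and between pyruvate and MS-275 8 with both and 3 to 5 without 1 library. The cause was not tested.

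Signs changed for these values. EHMT1 with A485 became 0.056 with quantile normalization, 0.37 with equal library totals, 0.27 with the trend removed, with or without the block, and 0.0010 in edgeR, and ranged from -0.11 to 0.064 without 1 library. CBX5 with A485 became 0.021 with equal totals, and without 1 library NSD2 ranged from -0.98 to 0.15 and SUV39H2 from -0.22 to 0.39. With MS-275, TRIM28 became -0.029 (quantile) and -0.078 (equal totals), and without 1 library ranged from -0.084 to 0.21, CBX3 from -0.64 to 0.27 and SUV39H2 from -1.01 to 0.43. With pyruvate, SUV39H1 became -0.33 (quantile), SETDB1 0.24 (equal totals) and 0.22 (trend removed, with or without the block), and TRIM28 0.63 (trend removed, with or without the block). No count model was run for MS-275 or pyruvate.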
